A study of Mus musculus with 12 samples.

Results

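The 10 genes described here are transcription factors that pattern the cardiac outflow tract and regional mesoderm: *Hand1*, *Hand2*, *Gata4*, *Gata6*, *Tbx2*, *Tbx18*, *Tbx20*, *Foxc1*, *Foxc2*, and *Meox1*. They were chosen by symbol from the 52636 rows of the gene count matrix, with the difference of *Hand2* between aortic segments already known from these libraries. The values that chose them are therefore those of the segment comparison, which is given below as a description without a test. The comparison of genotypes was not used in the choice and was tested. All 10 genes had a row, and 9 passed the filter on low counts that left 22320 genes for testing. *Meox1* did not pass. *Gata4* was listed at 0 in 5 of its 6 descending libraries, so that it passed through the ascending/arch libraries in which it was higher.

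The libraries hold RNA of GFP+ smooth muscle cells (SMCs) from 12-week-old C57BL/6J mice, in which the ascending aorta with the arch and the descending thoracic aorta were sorted apart. GFPiSMC mice carry a tamoxifen-inducible Cre (*Myh11-CreERT2*) and the *mT/mG* reporter, which marks recombined cells with GFP. Tgfbr1/2iSMCKO mice carry the same alleles with floxed *Tgfbr1* and *Tgfbr2*, so that tamoxifen deletes both TGF-β receptors in cells with *Myh11* promoter activity. There were 12 libraries in 4 groups of 3, each from an individual segment. The labels number the libraries 1 to 3 within a genotype but name no animal, and both segments with the same genotype and number were read here as coming from 1 animal. Mice of both genotypes received tamoxifen for 5 days. The labels name 1 mg/d or 2 mg/d at 4 or 11 weeks of age without tying a dose and age to a library. The paper places the profiling of these sorted SMCs 1 week after receptor loss was induced in mature aortas. Its dose for mice treated from 11 weeks is 2 mg/d, and the libraries were read here as following that schedule. The GFPiSMC mice lack the floxed alleles, so the deletion and the mouse line cannot be told apart.

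In the embryo, SMCs of the ascending aorta and arch arise from the second heart field and the cardiac neural crest, whereas those of the descending thoracic aorta come from somitic mesoderm. HAND, GATA, T-box, and FOXC proteins act together in these progenitors as sequence-specific DNA-binding regulators of outflow tract and arch artery formation. HAND proteins are basic helix-loop-helix factors that pair with other factors of that class at E-boxes, GATA proteins are zinc finger factors that bind GATA sites, and MEOX1 is a homeodomain factor of the somites.

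Total counts ranged from 25007747 to 31392396 in the GFPiSMC libraries and from 20467027 to 30354994 in the Tgfbr1/2iSMCKO libraries, from 9208 to 20000 sorted cells. Levels are given as CPM, which are the deposited counts divided by TMM-scaled library sizes. All 8 smooth muscle markers were expressed, with summed levels from 33927 to 47855 CPM. *Tgfbr1* lay between 196 and 292 CPM in GFPiSMC libraries and between 198 and 295 CPM in Tgfbr1/2iSMCKO libraries, and *Tgfbr2* between 88.9 and 127.7 CPM and between 68.2 and 102 CPM. These counts cover whole genes and do not measure the deletion of exons.

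The sequences before the starts of 3 genes whose levels differed between segments are shown first, because *Hand2* and *Tbx20* were lower and *Tbx18* was higher in descending SMCs. They are RefSeq windows of the 250 bases before each start on GRCm38.p6, written 5′ to 3′ on the strand of the gene. The table held windows for 4 of the 10 genes, and the other is *Foxc1*. Capitals mark matches on either strand to an E-box (CANNTG), a GATA site (GATAA), or a forkhead site (TAAACA). A T-box sequence (GTGTGA), a SMAD sequence (CAGACA), and the box of core promoters (TATAAA) were also searched. The *Hand2* window is chr8:57320733-57320982 on the plus strand, the *Tbx20* window chr9:24774304-24774553 on the minus strand, and the *Tbx18* window chr9:87731261-87731510 on the minus strand.
Hand2: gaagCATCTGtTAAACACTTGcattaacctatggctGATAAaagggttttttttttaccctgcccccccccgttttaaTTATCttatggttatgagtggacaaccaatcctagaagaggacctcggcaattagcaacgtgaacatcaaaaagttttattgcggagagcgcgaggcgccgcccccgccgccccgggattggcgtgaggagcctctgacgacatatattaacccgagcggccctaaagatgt
Tbx20: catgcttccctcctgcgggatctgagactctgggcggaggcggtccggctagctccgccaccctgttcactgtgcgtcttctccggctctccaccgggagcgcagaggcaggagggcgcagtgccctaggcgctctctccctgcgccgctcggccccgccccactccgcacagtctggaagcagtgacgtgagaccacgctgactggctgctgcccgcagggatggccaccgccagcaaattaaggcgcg
Tbx18: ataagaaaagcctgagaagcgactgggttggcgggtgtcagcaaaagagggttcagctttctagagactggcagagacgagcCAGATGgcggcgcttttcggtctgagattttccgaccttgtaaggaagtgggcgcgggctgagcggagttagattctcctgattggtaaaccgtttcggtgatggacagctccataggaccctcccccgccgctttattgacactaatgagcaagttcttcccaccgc

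The *Hand2* window held 2 E-boxes, 2 GATA matches, and 1 forkhead match in its part farthest from the start. The forkhead match runs from -239 to -234 and shares its last 2 bases with the E-box from -235 to -230, so that both appear as 1 run of capitals. The *Tbx18* window held 1 E-box, from -168 to -163. None of the 6 motifs matched in the windows of *Tbx20* and *Foxc1*. Of the 32851 windows of this length in the table, 66.2% held an E-box, 22.6% a GATA match, and 12% a forkhead match. The T-box letters occurred in 12.3%, the SMAD letters in 17.1%, and the letters TATAAA in 12.4%. The *Hand2* and *Tbx18* windows had a GC content of 49.2% and 54%, near the median of 52.4%, while those of *Tbx20* and *Foxc1* had 68.8% and 70.8%. A match is a description of letters and not a binding site.

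*Hand2*, which directs growth of the outflow tract and right ventricle, was abundant in ascending/arch SMCs and low in descending SMCs of both genotypes. *Hand2* (ENSMUSG00000038193.4; GRCm38 chromosome 8, 57320983 to 57324633, plus strand) stood at 47.8, 61.5, and 69.0 CPM in the ascending/arch libraries of GFPiSMC replicates 1, 2, and 3. In the descending libraries of the same animals it stood at 1.11, 3.58, and 6.43 CPM. The corresponding values of the Tgfbr1/2iSMCKO animals were 130.2, 102.6, and 67.8 CPM in ascending/arch and 1.78, 1.57, and 0.810 CPM in descending libraries. All 6 descending libraries lay below all 6 ascending/arch libraries. Within an animal, the ascending/arch level was 10.7 to 42.9 times the descending level in GFPiSMC and 65.5 to 83.7 times in Tgfbr1/2iSMCKO mice. The fitted log2 difference, descending over ascending/arch, was -4.00 (SE 0.54) in GFPiSMC and -6.18 (SE 0.60) in Tgfbr1/2iSMCKO SMCs. In bulk samples, fewer cells that express a gene and less RNA per cell cannot be told apart.

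*Tbx20*, a T-box factor of the developing heart chambers and outflow tract, had the same order of segments at a lower level. *Tbx20* (ENSMUSG00000031965.15; chromosome 9, 24718138 to 24774303, minus strand) was at 19.4, 21.9, and 27.8 CPM in ascending/arch and at 3.07, 1.65, and 6.79 CPM in descending GFPiSMC libraries. In Tgfbr1/2iSMCKO libraries it was at 30.7, 30.9, and 23.0 CPM in ascending/arch and at 3.69, 8.70, and 3.74 CPM in descending SMCs. All 6 descending libraries again lay below all 6 ascending/arch libraries. The ascending/arch level was 3.55 to 13.3 times the descending level within an animal, and the log2 difference over both genotypes was -2.49 (SE 0.33).

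*Gata4*, a zinc finger factor of heart progenitors and cardiomyocytes, was found at low counts and nearly only in ascending/arch libraries. *Gata4* (ENSMUSG00000021944.15; chromosome 14, 63198922 to 63271692, minus strand) had 12, 22, and 14 counts in ascending/arch GFPiSMC libraries and 0 in the 3 descending ones. In Tgfbr1/2iSMCKO libraries it had 54, 163, and 40 counts in ascending/arch and 3, 0, and 0 counts in descending SMCs. With 3 counts over the group taken as the limit for a count of 0 (0.0377 CPM), the pooled ascending/arch level in GFPiSMC SMCs was 15.8 times that limit. The limit assumes tallied fragments and leaves out the spread between animals, so 15.8 is not a firm lower bound. In Tgfbr1/2iSMCKO SMCs the ratio of the counts pooled over animals (257 and 3) was 82.8, and 163 of the 257 counts came from replicate 2. An exact 95% binomial interval ran from 28.0 to 404. It treats the values as tallied fragments, although they were derived from coverage, and leaves out the spread between animals. It is therefore no test of the ratio. *Hand2*, *Tbx20*, and *Gata4* were thus the 3 of 9 tested genes whose descending libraries all lay below the ascending/arch libraries, and 134 of all 22320 genes (0.600%) did so. None of the 9 had all descending libraries above all ascending/arch libraries, as 47 genes (0.211%) did. The first count includes the gene whose difference guided the choice, so nothing is read from it.

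**Figure D1:**
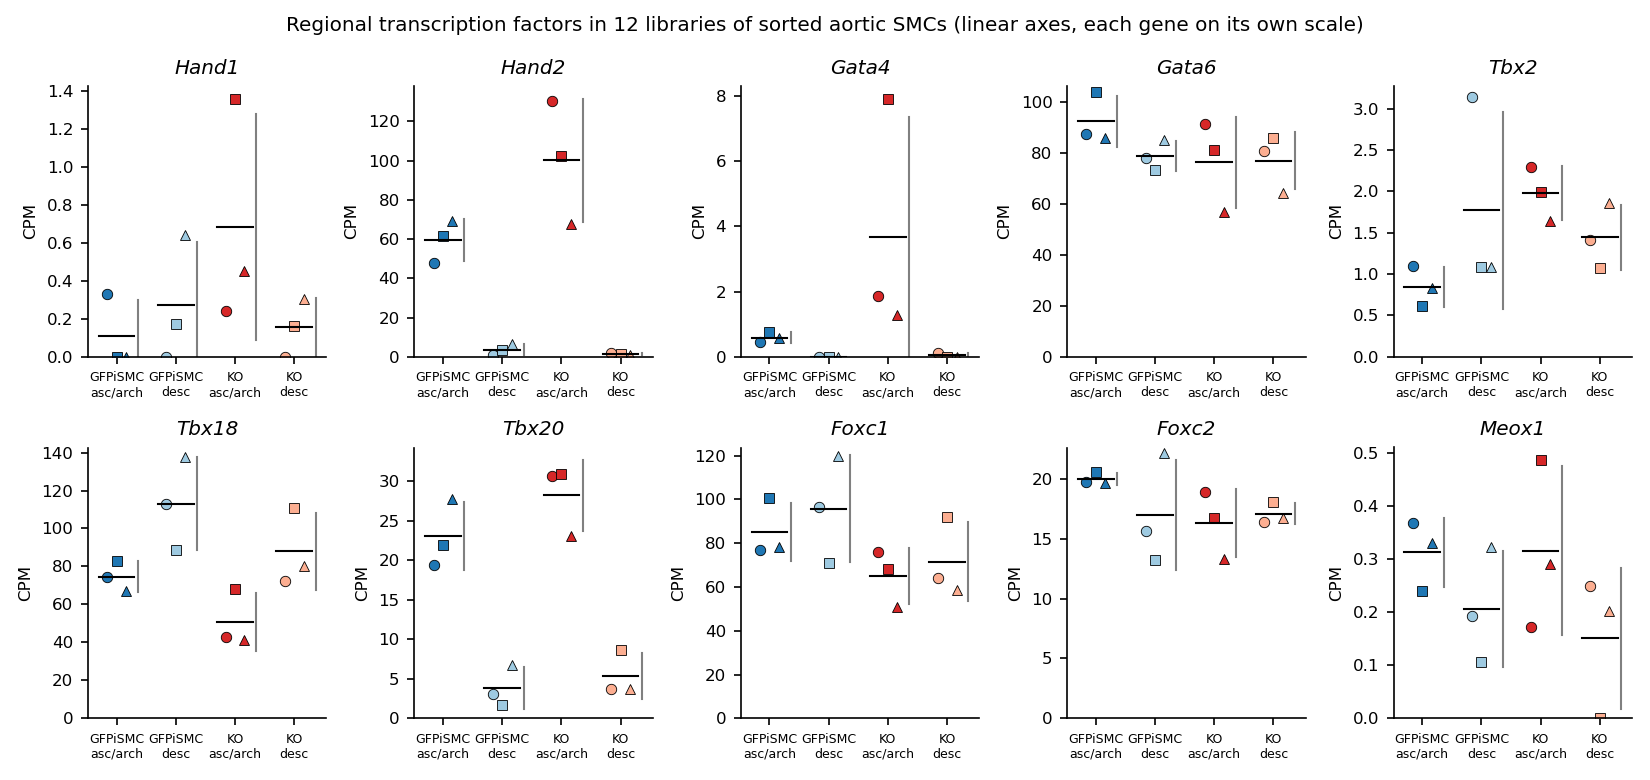
Level of each of the 10 genes in every library, in CPM on linear axes that differ between genes. Points are libraries (circle, square, and triangle for replicates 1, 2, and 3), black lines are group means, and gray lines are ±1 SD (n = 3 animals), ended at 0 where they would pass it. KO stands for Tgfbr1/2iSMCKO. *Hand2* ran from 0.810 to 6.43 CPM in descending and from 47.8 to 130.2 CPM in ascending/arch libraries, whereas *Gata6* stayed between 56.7 and 104 CPM.

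*Tbx18*, a T-box factor of the epicardium and of mural cells, had the opposite order. *Tbx18* (ENSMUSG00000032419.8; chromosome 9, 87702800 to 87731260, minus strand) was at 74.2, 82.9, and 67.0 CPM in ascending/arch and at 113.0, 88.6, and 137.6 CPM in descending GFPiSMC libraries. In Tgfbr1/2iSMCKO libraries it was at 43.0, 68.4, and 41.2 CPM in ascending/arch and at 72.5, 110.8, and 80.4 CPM in descending SMCs. Descending libraries lay above ascending/arch libraries within each genotype, as they did for 5.19% of all genes in GFPiSMC and 3.15% in Tgfbr1/2iSMCKO SMCs, but not over all 12. The descending level was 1.07 to 2.05 times the ascending/arch level within an animal, and the log2 difference over both genotypes was 0.69 (SE 0.17). An uncharacterized transcript on the other strand, *D030062O11Rik*, shares 970 exon bases with *Tbx18* and was under 1 CPM in every library.

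*Gata6*, which is needed in SMC precursors for septation of the outflow tract, and the forkhead factors *Foxc1* and *Foxc2*, which act in arch artery remodeling, were expressed at similar levels in both segments. *Gata6* (ENSMUSG00000005836.8) was at 87.6, 104.0, and 86.1 CPM in ascending/arch and 78.0, 73.4, and 85.2 CPM in descending GFPiSMC libraries. In Tgfbr1/2iSMCKO libraries it was at 91.5, 81.3, and 56.7 CPM and at 80.8, 86.0, and 64.4 CPM. The segments did not overlap in GFPiSMC SMCs, by a margin of under 1 CPM, and they overlapped in Tgfbr1/2iSMCKO SMCs. The share of all genes with this order in GFPiSMC SMCs was not counted, so nothing is read from it. *Foxc1* (ENSMUSG00000050295.4; chromosome 13, 31806633 to 31812476) had group means of 85.3 ± 13.2 and 95.7 ± 24.5 CPM in ascending/arch and descending GFPiSMC SMCs and of 65.1 ± 12.8 and 71.6 ± 18.0 CPM in Tgfbr1/2iSMCKO SMCs (SD, n = 3 animals). *Foxc2* (ENSMUSG00000046714.7; chromosome 8, 121116171 to 121118895) had means of 20.0 ± 0.516, 17.0 ± 4.60, 16.3 ± 2.81, and 17.1 ± 0.896 CPM in the same order of groups. For both genes the segments overlapped within each genotype. The log2 difference between segments over both genotypes was -0.11 (SE 0.14) for *Gata6*, 0.15 (SE 0.17) for *Foxc1*, and -0.08 (SE 0.17) for *Foxc2*.

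The remaining 3 genes were at the edge of detection. *Tbx2*, a T-box repressor of the outflow tract and atrioventricular canal (ENSMUSG00000000093.6; chromosome 11, 85832551 to 85841948), had 18 to 82 counts per library. *Hand1*, the relative of *Hand2* (ENSMUSG00000037335.13; chromosome 11, 57828705 to 57832818), had 0 to 28 counts and was at 0 in 4 libraries. *Meox1* (ENSMUSG00000001493.9; chromosome 11, 101877510 to 101894374) had 0 to 10 counts. Segments overlapped within each genotype for *Hand1*, *Meox1*, and *Tbx2*. The range of *Tbx2* (0.618 to 3.15 CPM) lay above that of *Meox1* (0 to 0.485 CPM), and that of *Hand1* (0 to 1.36 CPM) overlapped both.

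**Figure D2:**
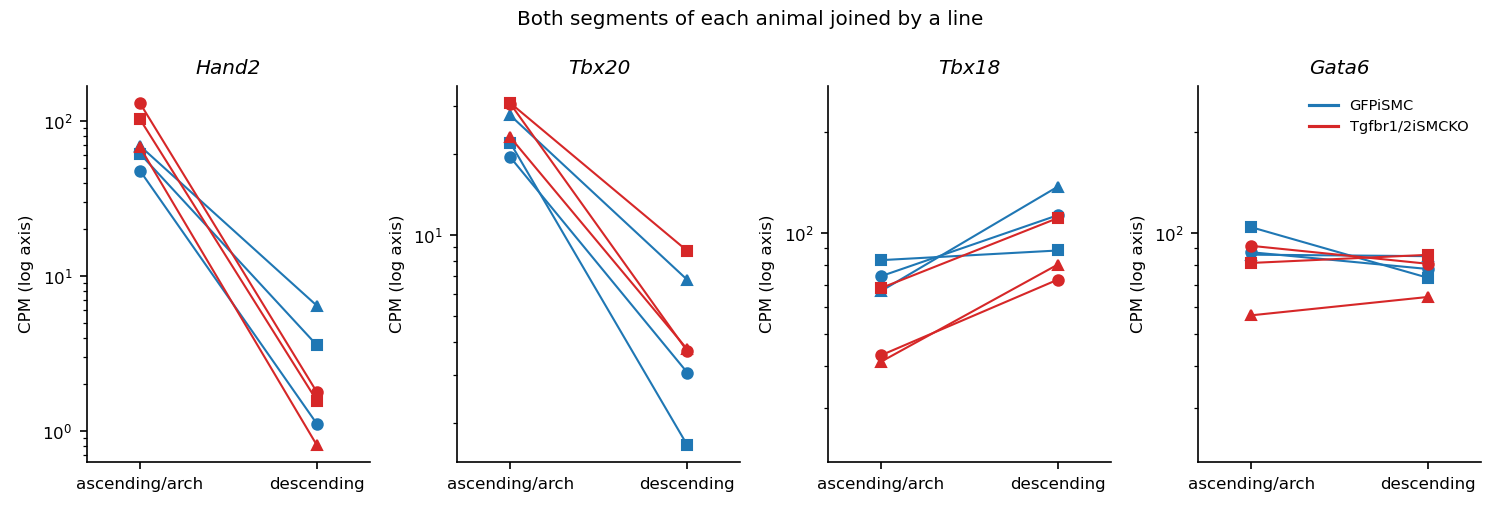
CPM on a log axis in ascending/arch and descending libraries of each animal, joined by a line, for *Hand2*, *Tbx20*, *Tbx18*, and *Gata6* (blue for GFPiSMC, red for Tgfbr1/2iSMCKO, symbols for replicates 1, 2, and 3). *Hand2* and *Tbx20* were lower and *Tbx18* was higher in the descending library of all 6 animals, and the steepest lines are those of *Hand2* in the Tgfbr1/2iSMCKO animals.

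Per kilobase of exon, the order of levels changed between segments. In ascending/arch GFPiSMC SMCs, *Hand2* had the highest mean at 25.3 CPM per kb, followed by *Tbx18* at 15.8, *Foxc1* at 14.6, *Gata6* at 14.2, *Foxc2* at 7.33, and *Tbx20* at 1.92 CPM per kb. In descending GFPiSMC SMCs, *Tbx18* had the highest mean at 24.0 CPM per kb, followed by *Foxc1* at 16.4, *Gata6* at 12.1, *Foxc2* at 6.24, and *Hand2* at 1.58 CPM per kb. *Tbx2*, *Gata4*, *Hand1*, and *Meox1* were under 1 CPM per kb in all 4 groups. The levels of *Foxc1* and *Gata6* were within the spread of their libraries of one another in ascending/arch SMCs.

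Across the 12 libraries, *Hand2* was accompanied by transcripts of its own locus. The 5 genes with the highest Pearson correlation of log2(CPM + 0.5) with *Hand2*, out of 14492 genes that averaged at least 1 CPM, were *5033428I22Rik* (0.983), *Hand2os1* (0.982), *Lum* (0.969), *Gm34030* (0.964), and *Ccn3* (0.953). Of these, 3 lie on chromosome 8 next to *Hand2*. *Hand2os1* (57281117 to 57324233, minus strand) overlaps it, *5033428I22Rik* (57332118 to 57354580, plus strand) begins 7.48 kb beyond its end, and *Gm34030* (57331692 to 57334585, minus strand) ends 7.06 kb beyond it. The correlations share the difference between segments and the depth of the libraries, and are a description over 12 points. Among the members, *Tbx20* (0.914) and *Gata4* (0.806) had the highest correlation with *Hand2*, and *Tbx18* the lowest (-0.66).

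*Hand2os1*, the antisense neighbor of *Hand2*, had the same order of groups. It was at 25.7, 42.4, and 47.2 CPM in ascending/arch and 2.95, 3.58, and 3.29 CPM in descending GFPiSMC libraries. In Tgfbr1/2iSMCKO libraries it was at 71.8, 55.9, and 30.5 CPM and at 1.78, 1.53, and 1.75 CPM. Of its 37 annotated transcripts, 13 begin within the *Hand2* window printed above, and the genes share 461 exon bases. In the descending library of GFPiSMC replicate 2, both *Hand2* and *Hand2os1* stood at 102 counts, and in that of Tgfbr1/2iSMCKO replicate 1 both stood at 43 counts. The sources used here do not say whether counting used the strand, and without strand, reads from the overlapping exons cannot be told apart. *5033428I22Rik*, which does not overlap *Hand2*, had group means of 7.15 and 0.701 CPM in GFPiSMC and 9.80 and 0.464 CPM in Tgfbr1/2iSMCKO SMCs.

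Some markers of other cell types differed between segments, in either direction. The summed level of 10 fibroblast markers ran from 401 to 551 CPM in ascending/arch and from 276 to 736 CPM in descending GFPiSMC libraries, and from 576 to 1411 CPM and from 205 to 1080 CPM in Tgfbr1/2iSMCKO libraries. These sums mostly follow *Gsn*, which averaged 475 CPM over the 12 libraries. The next most abundant, *Col14a1* and *Dcn*, averaged 40.9 and 38.2 CPM, so the sums do not show the order of the other markers. *Lum* (19.6 to 69.8 CPM in ascending/arch, 0.944 to 3.93 CPM in descending libraries) and *Dcn* (27.6 to 120.3 and 2.31 to 23.4 CPM) were the 2 of the 10 that were lower in all 6 descending libraries, and 0 were higher in all 6. Over all tested genes, 0.600% lay lower and 0.211% higher in this way. Within GFPiSMC libraries, 5 markers lay lower in every descending library and 1, *Serpinf1* (means of 15.1 and 33.1 CPM), lay higher. Within Tgfbr1/2iSMCKO libraries 4 lay lower and 0 higher, and *Dcn*, *Lum*, and *Pdgfra* lay lower in both genotypes. Of all tested genes, 5.19% lay higher within GFPiSMC and 3.15% within Tgfbr1/2iSMCKO libraries. The shares that lay lower within a genotype were not counted, so nothing is read from these counts. Of 12 cardiomyocyte markers, *Tnnt2* was lower and *Tnni3* higher in descending libraries within each genotype, while *Myl7* was at 0 in every library and *Mybpc3*, *Nppa*, and *Sln* were under 1 CPM. *Tnni3* had means of 0.513 and 2.31 CPM in ascending/arch and descending GFPiSMC libraries and of 2.20 and 4.79 CPM in Tgfbr1/2iSMCKO libraries. The summed level of the 12 ran from 107 to 108 and from 57.9 to 104 CPM in GFPiSMC, and from 119 to 231 and from 65.8 to 89.6 CPM in Tgfbr1/2iSMCKO libraries. Of 9 mesothelial and epicardial markers, *Msln*, *Upk1b*, and *Lrrn4* were under 1 CPM in every library, *Krt18*, a keratin of simple epithelia, ran from 5.66 to 82.1 CPM, and *Muc16* reached 2.61 CPM. Their summed level ran from 17.0 to 45.6 and from 9.76 to 34.8 CPM in GFPiSMC, and from 36.2 to 85.7 and from 25.3 to 55.3 CPM in Tgfbr1/2iSMCKO libraries. The part of other cells in the segment differences was not tested.

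The effect of TGF-β receptor deletion on these genes was then examined over both segments, with segment as a covariate. None of the 9 tested genes passed an adjusted p of 0.05 by edgeR's quasi-likelihood test, where 1123 of 22320 genes (5.03%) did, 596 of them (2.67%) with a change of more than 2-fold. Of the 1123, 402 were higher and 721 lower in Tgfbr1/2iSMCKO SMCs, against 699 higher and 505 lower when libraries were scaled by their size only. *Gata4*, *Tbx18*, and *Foxc1* were the 3 with an unadjusted p under 0.05. DESeq2 called 1 of them, *Gata4*, where it called 11.2% of the genes to which it gave an adjusted p, and limma-voom, with animals as a random effect, called 0. No member had all 6 Tgfbr1/2iSMCKO libraries on one side of all 6 GFPiSMC libraries, as 980 genes (4.39%) had. The median log2 fold change, Tgfbr1/2iSMCKO over GFPiSMC, was -0.14 for the 9 members and 0.04 for all tested genes. Both libraries of an animal enter this fit as separate samples.

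The largest fitted difference was that of *Gata4*, whose mean in ascending/arch SMCs was 0.591 ± 0.158 CPM in GFPiSMC and 3.68 ± 3.67 CPM in Tgfbr1/2iSMCKO mice (SD, n = 3 animals each). The 3 Tgfbr1/2iSMCKO libraries were all above the GFPiSMC libraries, with replicate 2 (7.91 CPM) well above replicates 1 and 3 (1.85 and 1.29 CPM). The log2 fold change over both segments was 2.67 (SE 0.73, edgeR adjusted p = 0.0526, DESeq2 adjusted p = 0.00584). Within ascending/arch it was 2.62 (SE 0.87, edgeR adjusted p = 0.252), and without Tgfbr1/2iSMCKO replicate 2 it was 1.41 (edgeR adjusted p = 0.574). The same ascending/arch library had the highest *Hand1* (1.36 CPM), *Tnnt2* (105 CPM), and *Actc1* (69.9 CPM) and the highest summed cardiomyocyte markers (231 CPM). Of these markers, *Myl4* (8.15 CPM) was also highest there. *Tnni3* (1.94 CPM), *Myh7* (2.18 CPM), *Myh6* (1.21 CPM), *Actn2* (2.47 CPM), and *Mybpc3* (0.0971 CPM) were higher in other libraries, and *Nppa* and *Sln* were at 0 there. *Ryr2*, the most abundant marker of the list (48.3 CPM over the 12 libraries), was lower there than in all 3 ascending/arch GFPiSMC libraries. *Actc1*, cardiac α-actin, was higher in Tgfbr1/2iSMCKO SMCs by 4.20 (SE 0.66, edgeR adjusted p = 0.00161) on the log2 scale. *Actn2*, sarcomeric α-actinin, of the same list fell by 2.10 (SE 0.30, edgeR adjusted p = 0.000769). All 6 Tgfbr1/2iSMCKO libraries lay below the GFPiSMC libraries for *Actn2*, and 4.39% of all genes had them wholly on one side. The other 7 tested markers of the list did not pass by edgeR, while DESeq2 also called *Tnni3*. The part of these libraries' other cells in the *Gata4* difference was not tested.

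*Tbx18* and *Foxc1* had lower means in Tgfbr1/2iSMCKO SMCs in both segments, by differences that did not pass the adjusted test. The log2 fold change of *Tbx18* was -0.46 (SE 0.17, edgeR adjusted p = 0.166) over both segments, and without Tgfbr1/2iSMCKO replicate 2, which had the highest level of its genotype in each segment, it was -0.69 (edgeR adjusted p = 0.0213). That of *Foxc1* was -0.41 (SE 0.17, edgeR adjusted p = 0.229). For *Foxc2* and *Gata6*, the 95% intervals of the log2 fold change ran from -0.50 to 0.22 and from -0.45 to 0.14, which leaves out a 2-fold difference in either direction. *Tbx20* had a log2 fold change of 0.39 (95% interval -0.29 to 1.07), and *Hand1* one of 0.91 with an interval from -1.66 to 3.48. At 0 to 28 counts, a difference in *Hand1* was not detectable at this depth.

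**Figure D3:**
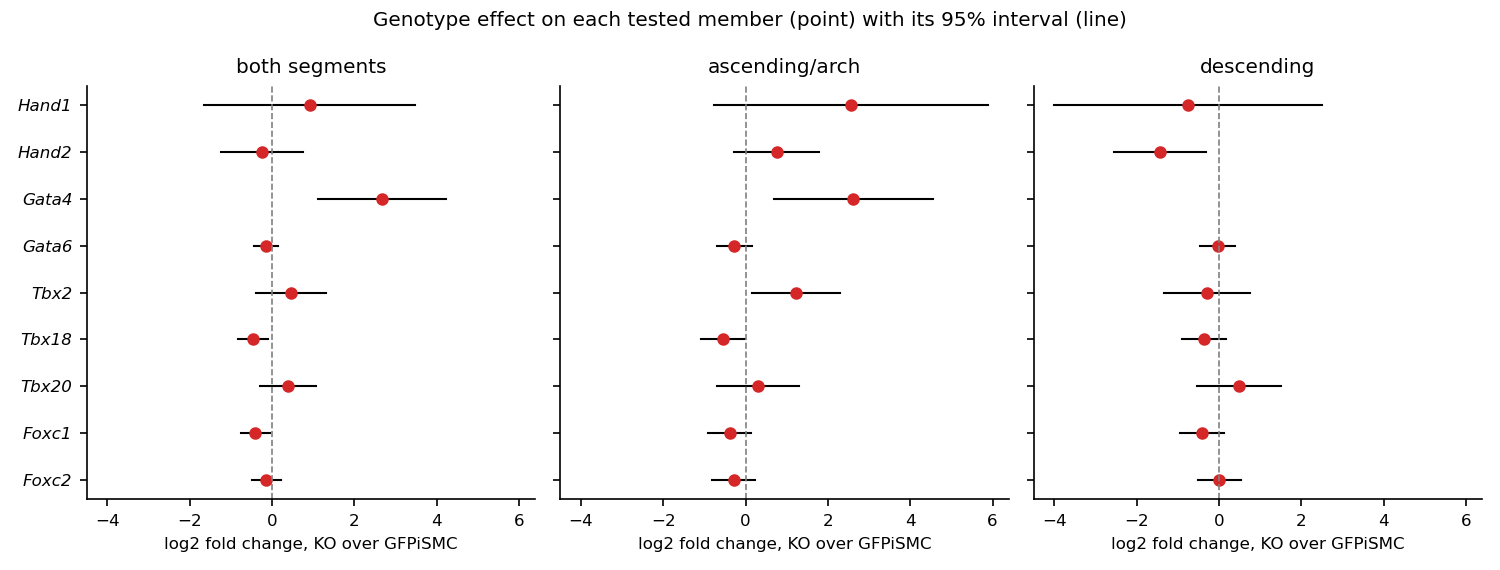
Log2 fold change of the 9 tested genes, Tgfbr1/2iSMCKO (KO) over GFPiSMC, with 95% intervals from the quasi-likelihood fit, over both segments, in ascending/arch, and in descending SMCs. *Gata4* in descending SMCs is not drawn because both groups were at or under 3 counts. *Hand2* lies to the right of 0 in ascending/arch (0.75) and to the left in descending SMCs (-1.42).

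Within single segments, none of the 9 passed the edgeR test in ascending/arch (3 with an unadjusted p under 0.05, against 315 of all genes, 1.41%, that passed the adjusted one) or in descending SMCs (1 with an unadjusted p under 0.05, against 385, 1.72%). DESeq2 called *Gata4* in ascending/arch, where it called 4.95% of genes, and 0 members in descending SMCs. In ascending/arch, *Gata4* and *Tbx2* were the 2 members with all 3 Tgfbr1/2iSMCKO libraries above all GFPiSMC libraries, as 8.87% of all genes had, and *Foxc1* and *Foxc2* the 2 with all 3 below, as 10.1% had. *Tbx2* was at 1.10, 0.618, and 0.826 CPM in GFPiSMC and at 2.30, 1.99, and 1.64 CPM in Tgfbr1/2iSMCKO ascending/arch libraries, a log2 fold change of 1.22 (SE 0.49, edgeR adjusted p = 0.354). In descending SMCs its log2 fold change was -0.29 (SE 0.48), and the fold changes of the segments differed by -1.51 (SE 0.69, edgeR adjusted p = 1.00), with an unadjusted p of 0.0477.

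*Hand2* had genotype differences of opposite sign in the segments. In ascending/arch SMCs its mean was 59.4 ± 10.8 CPM in GFPiSMC and 100.2 ± 31.3 CPM in Tgfbr1/2iSMCKO mice, and in descending SMCs 3.71 ± 2.66 CPM and 1.39 ± 0.510 CPM (SD, n = 3 animals). The libraries of the genotypes overlapped in both segments. The log2 fold change was 0.75 (SE 0.47, edgeR adjusted p = 0.621) in ascending/arch and -1.42 (SE 0.51, edgeR adjusted p = 0.285) in descending SMCs. The difference between these effects was -2.18 (SE 0.70, 95% interval -3.69 to -0.66), with an unadjusted p of 0.00862 by edgeR that did not pass adjustment over all genes (adjusted p = 1.00). *Hand2* and *Tbx2* were the 2 members with an unadjusted p under 0.05 in this comparison, in which 0 of 22320 genes (0%) passed the edgeR test, 659 had an unadjusted p under 0.05, and DESeq2 called 7 genes and 0 members.

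The value of *Hand2* over both segments differed in sign between fits. It was -0.25 (SE 0.46) in the fit with segment as a covariate, and 0.71 when the counts of both segments were summed per animal, a sum made up mostly of ascending/arch counts. *Hand2os1* had a log2 fold change of 0.46 (SE 0.31) in ascending/arch and -0.95 (SE 0.33, edgeR adjusted p = 0.248) in descending SMCs, where all 3 Tgfbr1/2iSMCKO libraries lay below the GFPiSMC libraries. The share of all genes with that order in descending SMCs was not counted, so nothing is read from it. The difference between the effects of *Hand2os1* was -1.41 (SE 0.45, edgeR adjusted p = 1.00), with an unadjusted p of 0.00839. The shared exons keep this from being a measurement apart from *Hand2*.

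Among the annotated neighbors of members, *1010001N08Rik* passed the genotype test, as 5.03% of all tested genes did. It is a noncoding gene on the strand opposite to *Gata6*, whose start lies 503 bases from that of *Gata6* and which shares 93 exon bases with it. It was at 4.44 to 7.40 CPM in the 6 GFPiSMC libraries and at 9.40 to 17.2 CPM in the 6 Tgfbr1/2iSMCKO libraries. The genotypes did not overlap, as was so for 4.39% of all genes. Without the strand, reads from the bases shared with *Gata6* cannot be told apart. Its log2 fold change was 1.30 (SE 0.22, edgeR adjusted p = 0.00272), with 1.71 (SE 0.28, edgeR adjusted p = 0.00794) in ascending/arch and 0.89 (SE 0.27, edgeR adjusted p = 0.169) in descending SMCs. *Gata6* itself had a log2 fold change of -0.15 (SE 0.14, edgeR adjusted p = 0.698).

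Related regional genes were compared through lists of the same families and fields, beside the 5.03% of all tested genes that passed the edgeR genotype test. Of 10 tested other T-box genes, none passed the genotype test, none had an unadjusted p under 0.05 by edgeR, DESeq2 and limma-voom called 0, and *Mga* (118 CPM over 12 libraries), *Tbx15*, and *Tbx19* were the most abundant. Of 5 other GATA genes and FOG cofactors, 1 rose in Tgfbr1/2iSMCKO SMCs. This was *Gata3*, from 0.257 to 2.07 CPM in GFPiSMC to 1.78 to 7.13 CPM in Tgfbr1/2iSMCKO libraries (log2 fold change 2.12, SE 0.46, edgeR adjusted p = 0.0159). *Zfpm2*, which encodes the GATA4 cofactor FOG2, did not pass (0.19, SE 0.17). Of 7 bHLH genes related to the HAND factors or able to pair with them, 1 fell. This was *Scx*, a factor of tendon and valve progenitors, from 8.52 to 13.6 CPM in GFPiSMC to 0.644 to 2.38 CPM in Tgfbr1/2iSMCKO libraries (-2.86, SE 0.34, edgeR adjusted p = 0.000186).

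Of 10 other forkhead genes, *Foxf1*, a factor of visceral mesoderm, rose (0.84, SE 0.17, edgeR adjusted p = 0.0112) and *Foxs1*, a forkhead gene expressed in perivascular cells, fell (-1.33, SE 0.31, edgeR adjusted p = 0.0226). Limma-voom called the same 2 forkhead genes, and DESeq2 called *Foxd1* as well. Among genes of the outflow tract and heart fields, *Nr2f2*, which encodes COUP-TFII, rose (0.49, SE 0.11, edgeR adjusted p = 0.0182). Of 7 tested genes of the somites or related to MEOX1, *Pax1*, a sclerotome factor, fell (-1.58, SE 0.28, edgeR adjusted p = 0.00354). None of 14 neural crest and mesenchyme genes passed by edgeR, with 2 at an unadjusted p under 0.05, and DESeq2 and limma-voom called 0. Of the 6 edgeR calls given here, *Scx* alone kept an adjusted p under 0.05 in every alternative fit. All 6 Tgfbr1/2iSMCKO libraries lay below the GFPiSMC libraries for *Scx* and *Foxs1*, and 4.39% of all genes had them wholly on one side. Both genes were picked by the genotype test on the same libraries, so nothing is read from this.

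**Figure D4:**
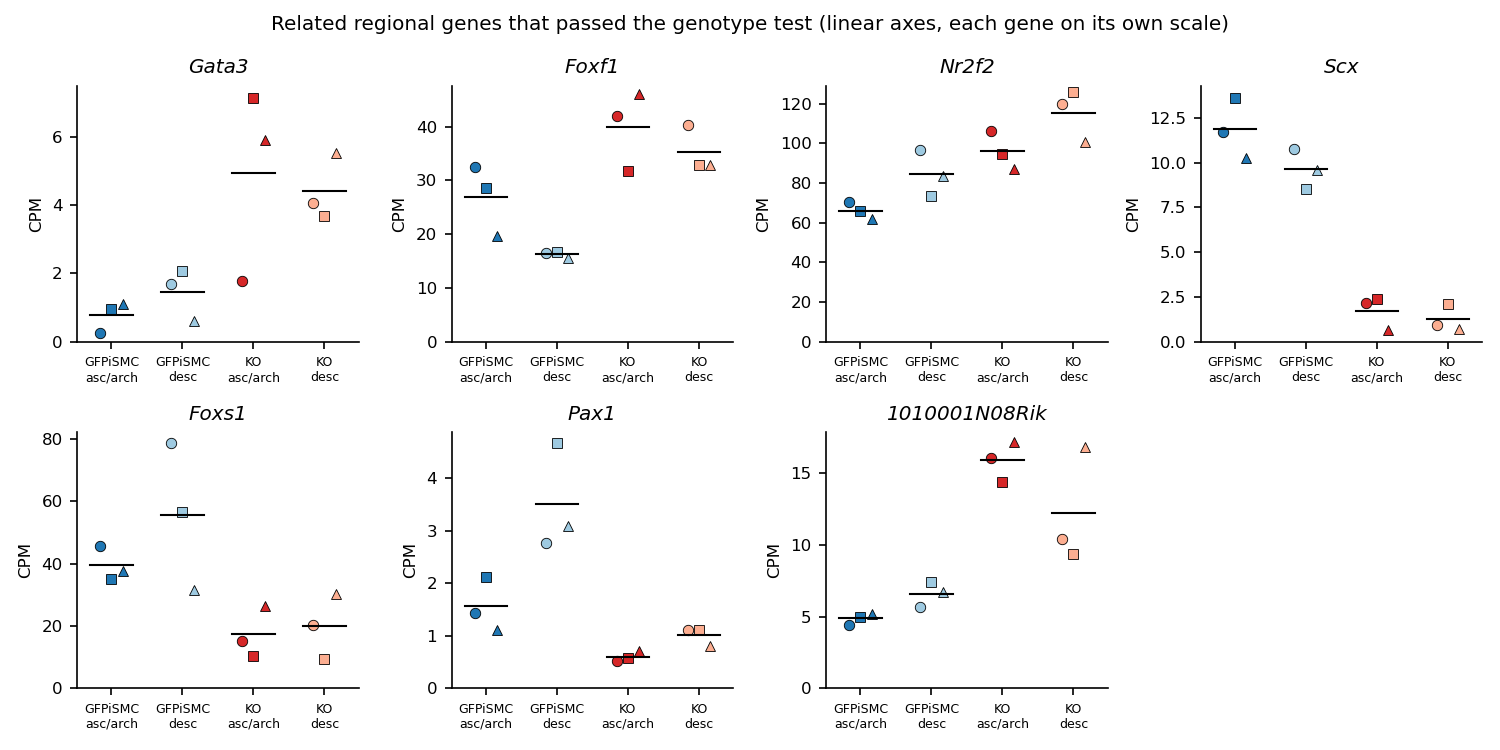
CPM by library (linear axes that differ between genes) of 6 related regional genes that passed the genotype test and of *1010001N08Rik*. Points are libraries (symbols for replicates 1, 2, and 3) and lines are group means, and KO stands for Tgfbr1/2iSMCKO. *Scx* ran from 8.52 to 13.6 CPM in GFPiSMC and from 0.644 to 2.38 CPM in Tgfbr1/2iSMCKO libraries of both segments.

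Beside *Hand2*, *Tbx20*, and *Gata4*, genes of some of these lists, but not of others, had all descending libraries below all ascending/arch libraries. They numbered 7 of 14 neural crest and mesenchyme genes (median log2 difference of the list -1.60, against 0.0034 for all genes), 2 of 13 outflow and heart field genes, and 1 of 10 other T-box genes, where 0.600% of all genes did so. The 7 were *Tfap2a*, *Tfap2b*, *Dlx5*, *Dlx6*, *Msx2*, *Prrx2*, and *Sox9*, the next 2 were *Osr1* and *Mab21l2*, and the last was *Tbx15*. All but *Sox9*, *Osr1*, and *Tbx15* were named after their values were seen. None of the tested other GATA and FOG (5), bHLH (7), forkhead (10), or somite and MEOX1-related genes (7) did so. The lists were chosen with earlier results of these data known, so nothing is read from these counts or from the list median. *Dlx5*, a homeobox gene of the branchial arches, ran from 7.13 to 39.6 CPM in ascending/arch and from 0.495 to 3.25 CPM in descending libraries. *Sox9*, which acts in valve and cartilage progenitors, ran from 24.1 to 46.5 CPM and from 6.27 to 21.5 CPM. *Prrx1*, the relative of *Prrx2*, did not separate the segments and had group means from 124 to 139 CPM.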

How the data were processed

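Bulk RNA-seq was analyzed from 12 libraries of sorted SMCs. The authors used HISAT2 for alignment to GRCm38 and StringTie for quantification of GENCODE M15 genes. They deposited whole-number counts per gene that are not normalized between libraries. StringTie derives values from coverage rather than by tallying fragments, and the strand setting is not given in the sources used here. Symbols and coordinates came from GENCODE M21 on the same build, which gave a symbol to 52403 of 52636 genes. The version of the *Gata6* identifier differed between the releases.

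Counts were filtered with filterByExpr on the 4 groups, scaled with TMM factors, and tested in edgeR 4.0.16 (R 4.3.3) by quasi-likelihood with segment and genotype, or with 4 group means for effects within a segment and their difference. P values were adjusted by the Benjamini-Hochberg method over 22320 genes, and calls are at an adjusted p under 0.05. SEs were obtained by dividing each log2 fold change by the root of its F statistic, and intervals are at 95%. The common biological coefficient of variation came to 0.442. The fits were tested on simulated counts. Libraries that share a genotype and a replicate number were read as coming from 1 animal. After removal of group means, the correlation over 9210 genes between both libraries of an animal was 0.187, -0.242, and 0.0240 in GFPiSMC and 0.0612, 0.377, and 0.661 in Tgfbr1/2iSMCKO mice. No 2 libraries were identical.

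The members and gene lists were chosen with earlier results of these data known. Genes named in the text are the members and list genes past the genotype threshold or among the 3 most abundant of a list. List genes whose segments did not overlap, and cell type markers given for their level or order, are named too. So are the 5 genes most like *Hand2* and annotated genes that overlap a member or start within 5 kb of its start. Alternatives were DESeq2 1.42.0, limma-voom (limma 3.58.1), no segment term, counts summed per animal, a replicate block, scaling by RLE factors or library size only, filters at 1 count in all or at a mean of 50 counts, each segment fitted alone, and each animal left out. Plots were made in Python 3.11.15 with matplotlib 3.10.9. One gene of these lists is not reported here. RNA-seq of whole aortas and single-cell data were not analysed here.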

Additional observations from a re-analysis of the deposited data

How the results depend on the processing

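The number of members past the genotype test over both segments was 0, and it was 1 under DESeq2, 1 with library size only, and 0 to 1 with an animal left out. The member was *Gata4* under DESeq2 (2.61, adjusted p = 0.00584), with library size only (2.75, adjusted p = 0.0419), and without Tgfbr1/2iSMCKO replicate 3 (3.08, adjusted p = 0.0213), and *Tbx18* without Tgfbr1/2iSMCKO replicate 2. Over all its alternatives, the adjusted p of *Gata4* ran up to 0.372, in the fit without segment. In ascending/arch the number was 0, and 1 under DESeq2 (*Gata4*, 2.63, adjusted p = 0.0425). It was 0 in descending SMCs and for the difference between segments under every alternative run, and counts of members beyond a 2-fold difference between segments moved by no more than 1.5 times. Library size only moved the median log2 fold change of all genes from 0.04 to 0.16. Over all genes, the 1123 calls over both segments became 1922 under DESeq2, 451 with counts summed per animal, and 622 to 1066 with an animal left out. The 315 calls in ascending/arch became 848 under DESeq2 and 128 to 240 with an animal left out, and the 385 in descending SMCs became 852 under DESeq2, 150 with the segment fitted alone, and 136 to 330 with an animal left out. The 0 calls for the difference between segments became 7 under DESeq2, 1 with no filter beyond 1 count, and 3 without GFPiSMC replicate 3.

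The log2 fold change of *Hand2* over both segments turned from -0.25 to 0.69 without segment, 0.71 with counts of an animal summed, and 0.51 with limma-voom, and ran from -0.65 to 0.083 with an animal left out (above 0 without GFPiSMC replicate 3 or Tgfbr1/2iSMCKO replicate 3). That of *Hand2os1* turned from -0.21 to 0.38, 0.41, and 0.20 in the first 3 of these fits. In descending SMCs, *Gata6* turned from -0.033 to 0.11 with library size only. With an animal left out, the values there ran from -0.12 to 0.064 for *Gata6*, from -0.14 to 0.24 for *Foxc2*, from -0.55 to 0.41 for *Tbx2*, from -1.67 to 0.80 for *Hand1*, and from -0.040 to 1.18 for *Tbx20*. None of these values passed the adjusted test, and the cause was not tested. Calls for *Foxf1*, *Foxs1*, *Nr2f2*, and *Pax1* were lost when counts were summed per animal (adjusted p = 0.117, 0.183, 0.171, and 0.0523). The call for *Gata3* was lost without GFPiSMC replicate 1 or 3 or Tgfbr1/2iSMCKO replicate 3. That for *Foxf1* was lost without GFPiSMC replicate 3 or Tgfbr1/2iSMCKO replicate 1. *Foxs1* (GFPiSMC replicate 1 or 2) and *Nr2f2* (GFPiSMC replicate 2 or 3) also lost theirs without Tgfbr1/2iSMCKO replicate 1 or 2, and *Pax1* kept its call in these fits.

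With the replicate block (replicate number), 994 genes passed over both segments in place of 1123 and no call of a member changed. The correlation of same-numbered libraries between genotypes ran from -0.201 to 0.216 in ascending/arch and from -0.527 to 0.0094 in descending SMCs, so the numbers do not pair the genotypes. With the animal as a block, the difference of *Hand2* between segments was -1.93 (edgeR adjusted p = 0.962). *Hand1*, *Meox1*, and *Gata4* in descending SMCs are limited by counts of 0 to 28.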
